A study of Homo sapiens with 18 samples.

Results

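The human genes ERVV-1, ERVV-2, PEG10, ERV3-1, ERVMER34-1 and ERVH48-1, which descend from retroviral envelope or Gag and Pol sequences, were followed in 3 cholangiocarcinoma (bile duct cancer) cell lines. These 6 were picked by symbol out of 36601 genes in each library, and the choice used their own values, namely their levels between lines in shControl cells and the paired hairpin comparison in each line. Those values are therefore given as descriptions with no p. Where edgeR called a member, this is stated as the outcome of the fit over all genes and is no evidence about a gene that was chosen on that contrast. Each line, HuCCT1, YSCCC and KKU-100, stably carried either the hairpin labelled shRNF213#2, written shRNF213 here, or a control hairpin, shControl, both brought in by lentivirus. RNF213 is a large ubiquitin ligase, and the title of the series asks about its part in local invasion. There were 3 biological replicates of each of the 6 combinations, 18 libraries in all, made from 750 ng of total RNA with a poly(A) TruSeq protocol. KKU-100 grew in Ham's F12 medium and the other lines in RPMI medium, all with 10% serum, so medium and line cannot be told apart between KKU-100 and the others. The labels name a single hairpin against RNF213.

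Over evolution the genome has kept a few retroviral genes as working host genes, and many of them are active in the placenta. Envelope genes encode the surface protein with which a virus binds a receptor on a cell and fuses with it, and the placental syncytins use this to fuse trophoblast cells. ERVV-1 and ERVV-2 are a pair of envelope genes of the HERV-V family, known as placental transcripts. ERV3-1 carries an envelope open reading frame of the HERV-R family. ERVMER34-1 encodes HEMO, an old envelope protein that is shed from cells. ERVH48-1 encodes suppressyn, which keeps syncytin-1 from its receptor SLC1A5. PEG10 comes from a Ty3-type retrotransposon, is imprinted and read from the paternal copy, and in mice is needed for the placenta. Its message makes a Gag-like protein and, where ribosomes slip back at a heptamer, a longer Gag-Pol-like protein.

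In build GRCh38 the files place ERVV-1 (ENSG00000269526) at chr19:53013921-53016122 and ERVV-2 (ENSG00000268964) at chr19:53044740-53051680, both on the plus strand. Over the aligned coding sequence the GENCODE release 29 transcripts of this pair share 1407 of 1430 bases, 98.4%, with 23 that differ. The first 60 coding bases are shown because they are the same in both genes, so that a read from them fits either.
ERVV-1, chr19:53014091-53014150, plus strand: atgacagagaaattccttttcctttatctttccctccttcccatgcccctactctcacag
ERVV-2, chr19:53049252-53049311, plus strand: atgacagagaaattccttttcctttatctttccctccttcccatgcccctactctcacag
The window below holds 5 differences, the most of any of the 22 ungapped windows of 60 bases laid end to end, and the capitals mark the bases that differ.
ERVV-1, chr19:53015408-53015467, plus strand: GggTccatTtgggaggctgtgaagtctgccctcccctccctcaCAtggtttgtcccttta
ERVV-2, chr19:53050572-53050631, plus strand: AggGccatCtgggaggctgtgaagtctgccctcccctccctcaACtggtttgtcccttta
In 17 of the 22 windows the genes did not differ at all. Of all runs of 50 bases in the ERVV-1 transcript, 51.0% also stand in the ERVV-2 transcript, and of runs of 100 bases 43.6% do. Counts of the pair are for this reason uncertain as counts of either gene alone. For PEG10 (ENSG00000242265, chr7:94656325-94669695, plus strand) the stretch around the heptamer at which ribosomes shift frame is shown, with the heptamer GGGAAAC in capitals.
PEG10, chr7:94664485-94664541, plus strand: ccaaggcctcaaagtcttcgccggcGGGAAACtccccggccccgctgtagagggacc
The other members lie on the minus strand, ERV3-1 (ENSG00000213462) at chr7:64990356-65006743, ERVMER34-1 (ENSG00000226887) at chr4:52722618-52751586 and ERVH48-1 (ENSG00000233056) at chr21:42916803-42925646.

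Library totals ran from 21056732 to 25502097 counts. RNF213 itself was lower with its hairpin in all 9 pairs. The log2 difference was -0.89 (SE 0.18) in HuCCT1, -1.16 (SE 0.13) in YSCCC and -0.97 (SE 0.15) in KKU-100. The first missed the threshold (edgeR adjusted p = 0.136). From counts scaled to library size, the HuCCT1 pairs had log2 ratios of -0.50, -1.57 and -0.60, replicates 1 to 3, and the groups overlapped. Replicate 2 of HuCCT1 shControl had 26931 counts of RNF213, against 9654 and 10553 in the other libraries of that group. Bile duct and epithelial markers were present at 1 CPM (counts scaled to library size) or more for 7 of 7 genes in HuCCT1, 7 of 7 in YSCCC and 5 of 7 in KKU-100, where KRT19 had 0 to 4 counts and EPCAM 0 to 3. With the replicate number as a block, edgeR called 22 genes in HuCCT1, 1397 in YSCCC and 66 in KKU-100 at an adjusted p below 0.05. Without that block it called 0 genes in YSCCC and 0 in HuCCT1, with 802 and 388 genes at an unadjusted p below 0.05, and 2 in KKU-100. Every hairpin call below therefore rests on the pairing of libraries by replicate number.

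ERVV-2 was a YSCCC gene among these lines. Its counts there were 954, 567 and 656 in shRNF213 cells and 3220, 1105 and 3245 in shControl cells, replicates 1 to 3. The groups did not overlap, and each shRNF213 library lay below its shControl partner. Replicate 2 was the lowest in both groups, and its drop was the smallest. ERVV-2 averaged 27.3 ± 8.47 CPM in shRNF213 cells and 96.9 ± 48.1 CPM in shControl cells (SD, n = 3 each), a mean 3.54-fold lower. The fitted log2 difference was -1.72 (SE 0.19), with -1.83, -0.97 and -2.31 in the 3 pairs. In HuCCT1 there were 1, 0 and 13 counts in shRNF213 cells and 2, 2 and 16 in shControl cells. In KKU-100 there were 1, 1 and 2 counts in shRNF213 cells and 0, 5 and 1 in shControl cells. ERVV-2 was thus near the limit of detection in both lines, with most HuCCT1 counts in replicate 3 of either hairpin, and it entered the fit of neither line.

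ERVV-1, the sister gene, had far fewer counts and the same direction in YSCCC. It had 33, 19 and 18 counts in shRNF213 cells and 80, 44 and 51 in shControl cells. Here too the groups did not overlap, and replicate 1 was highest with either hairpin. The log2 difference was -1.36 (SE 0.26), and the means were 0.882 ± 0.348 CPM in shRNF213 cells and 2.26 ± 0.885 CPM in shControl cells (SD, n = 3 each). The call on ERVV-1 was lost without replicate 1, at the same log2 difference of -1.36. In HuCCT1 ERVV-1 had 2, 1 and 9 counts in shRNF213 cells and 2, 1 and 15 in shControl cells, again mostly in replicate 3. In KKU-100 there was 1 count in shRNF213 cells and 1 in shControl cells.

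How large ERVV-1 is beside ERVV-2 depended on the deposited measure. By counts ERVV-1 came to between 1.57% and 3.98% of ERVV-2 over the 6 YSCCC libraries. By the deposited TPM, a measure per transcript length, it came to between 20.4% and 23.0%. The 2 transcripts are of like length, 2202 bases for ERVV-1 and 2431 for ERVV-2. In YSCCC the deposited FPKM of ERVV-1 was 3.64 to 9.29 times the FPKM that its own count and length give, whereas for ERVV-2 it was 0.769 to 0.796 times. The part of the sequence shared by the pair in this gap was not tested. The drop with the hairpin was seen by either measure, since ERVV-1 averaged 5.48 ± 1.22 TPM in shRNF213 cells and 18.8 ± 9.43 TPM in shControl cells (SD, n = 3 each), and ERVV-2 averaged 25.3 ± 6.62 TPM in shRNF213 cells and 92.0 ± 46.7 TPM in shControl cells. With the counts of both genes added into 1 feature the log2 difference was -1.71. In HuCCT1 the pair was close to even, with 9 ERVV-1 and 13 ERVV-2 counts in shRNF213 replicate 3 and 15 and 16 in shControl replicate 3.

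**Figure D1:**
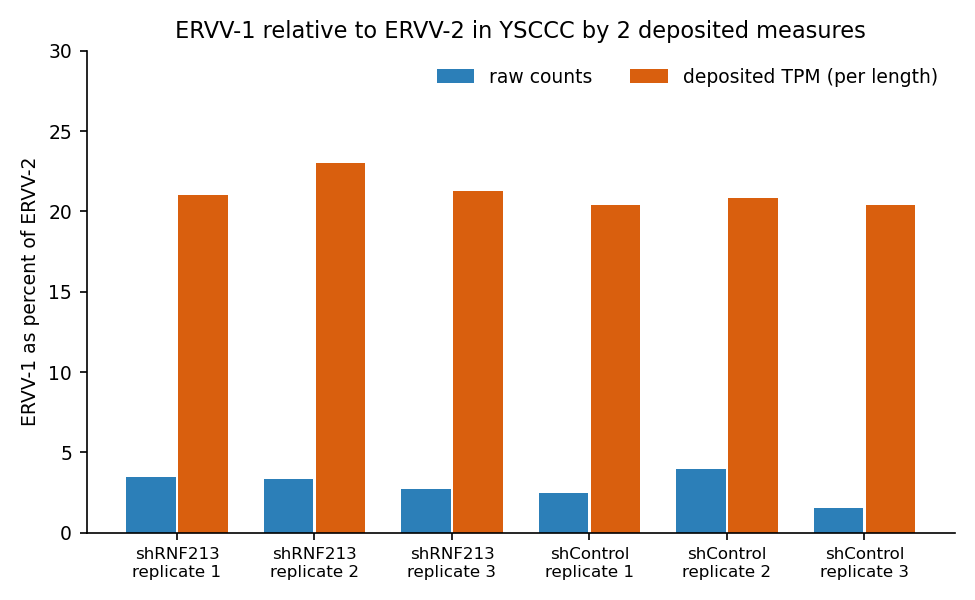
ERVV-1 as a percent of ERVV-2 in each of the 6 YSCCC libraries, from raw counts and from the deposited TPM, with the 3 shRNF213 libraries left of the 3 shControl libraries. The bars from counts lie between 1.57% and 3.98%, and those from TPM between 20.4% and 23.0%.

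Of the 5 members that could be fitted in YSCCC, 2 were called lower (ERVV-1 and ERVV-2) and 1 higher (PEG10). Over all genes tested in that line 4.56% were called lower, 3.69% higher and 8.25% in either direction. Since the members were chosen with this contrast in view, the share among them is not read against that background.

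Of the genes around the ERVV pair, 1 was called lower in YSCCC as well. AC010328.1, a long noncoding RNA on the same strand that ends 741 bases before ERVV-1, had 38, 51 and 41 counts in shRNF213 cells of YSCCC and 123, 87 and 89 in shControl cells. It fell by 1.22 on the log2 scale (SE 0.24, edgeR adjusted p = 0.00813), and its groups did not overlap. Its transcript shares 0 of 4031 windows of 30 bases with either ERVV gene. The call on AC010328.1 was lost without replicate 1, at a log2 difference of -0.95. In shRNF213 and shControl cells of HuCCT1 it had at most 5 and 10 counts, and in KKU-100 1 count in shRNF213 cells and 0 in shControl cells. The zinc finger genes nearby, which sit on the opposite strand, had log2 differences in YSCCC of -0.12 for ZNF160, -0.06 for ZNF415, -0.25 for ZNF816, -0.05 for ZNF888 and -0.19 for ZNF347, and none of these passed the test. AC010487.2, with 6 to 25 counts in a YSCCC library, had a log2 difference of 0.54 that did not pass either.

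**Figure D2:**
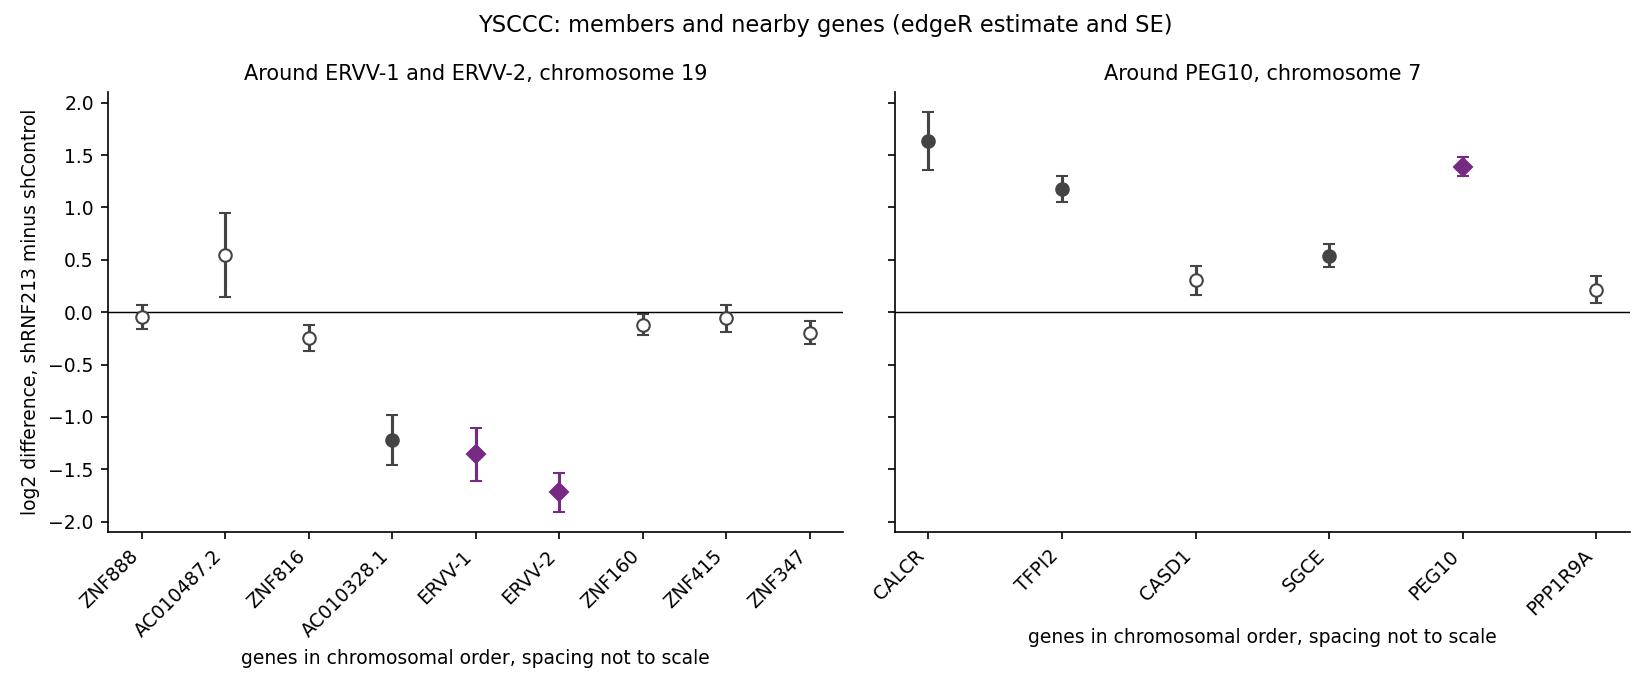
Log2 difference, shRNF213 minus shControl, with its SE in YSCCC for the genes around ERVV-1 and ERVV-2 and for PEG10 with its 5 listed neighbours. Genes stand in chromosomal order and not to scale, and unlisted genes between the neighbours of PEG10 are not shown. Diamonds are members, filled circles other genes called by edgeR and open circles genes that were not called. On chromosome 19 the ERVV pair and AC010328.1 lie below -1, and on chromosome 7 PEG10, TFPI2 and CALCR lie above 1.

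Because the ERVV genes are placental transcripts, 21 trophoblast markers were counted as well. In YSCCC 14 were tested and 5 were called lower, 0 higher, with a median log2 difference of -0.51 beside 0.01 over all genes tested, of which 4.56% were called lower. DESeq2 with the replicate block called 3 of the 14 lower. All 5 are pregnancy-specific glycoproteins, secreted proteins of the syncytiotrophoblast. PSG5 had 587, 355 and 220 counts in shRNF213 cells and 1301, 876 and 548 in shControl cells, and fell by 1.29 (SE 0.11, adjusted p = 7.82e-05). PSG1 had 135, 37 and 17 counts in shRNF213 cells and 371, 166 and 96 in shControl cells, and fell by 1.96 (SE 0.21, adjusted p = 0.000284). In each of these genes replicate 1 was the highest with either hairpin, and each pair showed the drop. PSG3 fell by 2.15 (SE 0.26, adjusted p = 0.000545) and PSG4 by 1.73 (SE 0.33, adjusted p = 0.00656). PSG9, the fifth, named because the count is small, had 3 to 8 counts in shRNF213 libraries and 12 to 26 in shControl libraries, a fall of 1.81 (SE 0.48, adjusted p = 0.0354). PSG genes are close copies of each other, so reads may be split among them, and the 5 calls are not independent. Without replicate 1, 3 of the 5 calls held.

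The summed level of the list, most of which came from genes other than PSG, overlapped between the groups. In YSCCC the 21 markers summed to 537, 488 and 254 CPM in shRNF213 libraries, replicates 1 to 3. In shControl libraries they summed to 578, 528 and 266 CPM. Each shRNF213 library thus lay below its partner, and so it did in HuCCT1 and KKU-100. The sum itself was not tested. CGB8 and CSH1 had no count in YSCCC. In HuCCT1 11 markers were tested and 1, VGLL1, a transcriptional cofactor, fell by 0.67 (SE 0.10, adjusted p = 0.0469). That call was lost without replicate 1, and 0.14% of all genes tested in HuCCT1 were called. In KKU-100 6 were tested and none was called, with a median of -0.26. Summed over 7 pluripotency markers, the level in YSCCC was 80.3 to 86.5 CPM in shRNF213 libraries and 92.7 to 118 CPM in shControl libraries. Only 3 of the 7 reached 1 CPM, and 0 of the 3 that were tested was called. The sum was almost all LIN28B, named for that reason, with means of 78.0 CPM in shRNF213 cells and 98.9 CPM in shControl cells. It thus describes that gene rather than the set. What part these levels have in the ERVV values was not tested.

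Over the 18 libraries PEG10 was by far the most abundant member in counts, with 136026. In shControl cells of YSCCC, however, ERVV-2 had 7570 counts over the 3 libraries beside 10936 of PEG10. With the hairpin PEG10 went the other way from the ERVV pair in YSCCC. It had 9460, 12466 and 7504 counts in shRNF213 cells and 3264, 4585 and 3087 in shControl cells. The groups stood well apart, and the ratio of the 2 libraries was 2.74, 2.70 and 2.43 in the 3 pairs. PEG10 averaged 369 ± 101 CPM in shRNF213 cells and 139.8 ± 32.2 CPM in shControl cells (SD, n = 3 each), 2.64-fold higher, and the log2 difference was 1.39 (SE 0.09). In HuCCT1 it had 17103, 5398 and 17214 counts in shRNF213 cells and 13963, 4800 and 13998 in shControl cells. There the groups overlapped, yet each pair was higher by a similar ratio of 1.21, 1.16 and 1.27, a log2 difference of 0.27 (SE 0.08) that was not called. In KKU-100 it had 5083, 3401 and 3330 counts in shRNF213 cells and 4161, 4101 and 3108 in shControl cells, with pairs of either sign and a log2 difference of -0.10 (SE 0.14). In HuCCT1 0 of 3 fitted members and in KKU-100 0 of 2 were called, where 0.14% and 0.443% of all genes tested were.

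**Figure D3:**
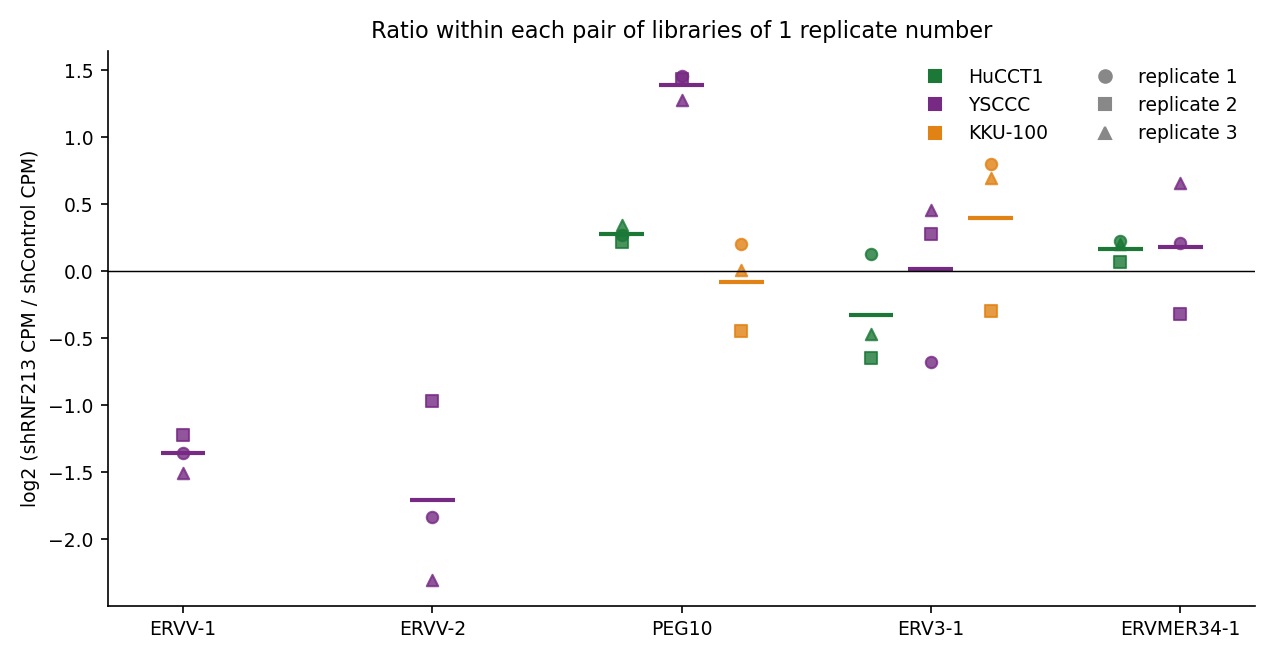
Log2 ratio of shRNF213 to shControl CPM within each pair of libraries of the same replicate number, by line, with a bar at the mean. Members are shown in lines where they passed the filter on low counts. All 3 YSCCC pairs lie near 1.4 for PEG10 and below 0 for ERVV-1 and ERVV-2, while ERV3-1 pairs fall on either side of 0 in each line.

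In a fit of all 18 libraries, the hairpin difference of PEG10 was 1.48 (SE 0.15) larger on the log2 scale in YSCCC than in KKU-100 and 1.11 (SE 0.15) larger than in HuCCT1. These were among 503 genes called for the first difference, 2.63% of those tested with 0.993% in the direction of PEG10, and 9 called for the second, 0.047% with 0.0366% in that direction. PEG10 was chosen with these contrasts in view, so nothing is read from those shares. The second call was lost when any single pair of HuCCT1, or pair 1 or 2 of YSCCC, was left out, with PEG10 itself between 1.08 and 1.15. For the ERVV genes the differences between YSCCC and KKU-100 had errors larger than their size, -1.05 (SE 1.44) for ERVV-2 and -1.25 (SE 2.01) for ERVV-1, and the other lines hold almost no counts of them.

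Some genes listed as imprinted neighbours of PEG10 on the same chromosome were higher too in YSCCC. Beyond 100 kb from PEG10 only genes of this list were looked at for their place. SGCE, the sarcoglycan gene that starts head to head with PEG10 and overlaps it by 248 bases, had 1323, 1294 and 1317 counts in shRNF213 cells and 836, 803 and 1022 in shControl cells. It rose by 0.54 (SE 0.11, adjusted p = 0.00875), without overlap between groups. TFPI2, a serine protease inhibitor gene 766 kb away, had 13388, 16154 and 12286 counts in shRNF213 cells and 5111, 5791 and 7308 in shControl cells and rose by 1.17 (SE 0.12, adjusted p = 0.000217). CALCR, the calcitonin receptor gene 1082 kb away, had 166, 96 and 21 counts in shRNF213 cells and 37, 46 and 5 in shControl cells and rose by 1.64 (SE 0.28, adjusted p = 0.00355). Over all genes tested in YSCCC 3.69% were called higher. Of the 5 listed genes 3 were, and CASD1 (0.30) and PPP1R9A (0.21) did not pass the test. In HuCCT1 0 of 4 tested and in KKU-100 0 of 4 tested were called, with medians of 0.01 and -0.12. Without replicate 1 TFPI2 alone of the 3 kept its call, and without replicate 2 SGCE lost it. The labels do not say whether the kit keeps strand. A read in the stretch common to SGCE and PEG10 could then count for either gene.

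Between replicates PEG10 varied more than with the hairpin in HuCCT1. Its replicate 2 stood at 265 CPM in shRNF213 cells and 228 CPM in shControl cells, against 687 and 729.5 CPM in the other shRNF213 libraries and 569 and 574 CPM in the other shControl libraries. That is 2.60-fold lower, with either hairpin. In the same replicate 20 interferon-stimulated genes summed to 8215 CPM in shRNF213 cells and 8176 CPM in shControl cells, against 939.6 and 892 CPM in the other shRNF213 libraries and 768 and 1311 CPM in the other shControl libraries. Whether the interferon genes and PEG10 are linked was not tested. In KKU-100, where these 20 genes summed to 8008 to 10600 CPM in shRNF213 and 10166 to 14857 CPM in shControl libraries, PEG10 lay between 136 and 246 CPM.

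**Figure D4:**
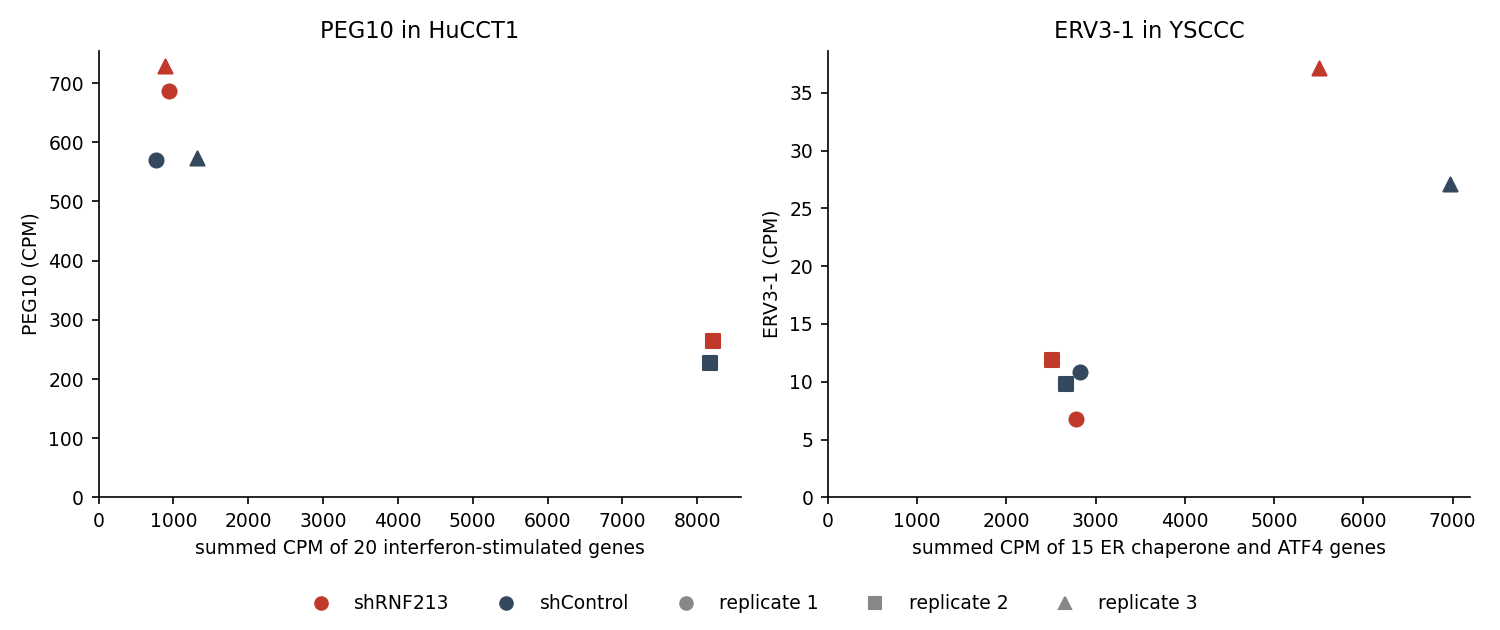
PEG10 in HuCCT1 against the summed CPM of 20 interferon-stimulated genes, and ERV3-1 in YSCCC against that of 15 genes for endoplasmic reticulum (ER) chaperones and ATF4 targets, 1 point per library. HuCCT1 replicate 2 lies at the lower right, at 265 and 228 CPM of PEG10, and YSCCC replicate 3 at the upper right, at 37.1 and 27.1 CPM of ERV3-1.

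ERV3-1 varied with line and replicate, with no steady move with the hairpin. In YSCCC it had 174, 315 and 1034 counts in shRNF213 cells and 264, 258 and 754 in shControl cells. Replicate 3 stood at 37.1 CPM in shRNF213 cells and 27.1 CPM in shControl cells, 3.27-fold above the mean of the other replicates. In that replicate 15 ER chaperone and ATF4 genes summed to 5504 CPM in shRNF213 cells and 6974 CPM in shControl cells, against 2511 and 2783 CPM in the other shRNF213 libraries and 2664 and 2823 CPM in the other shControl libraries. The link between them was not tested. The log2 difference of ERV3-1 with the hairpin was 0.05 (SE 0.18) in YSCCC and turned to -0.05 without replicate 2 and -0.18 without replicate 3. In HuCCT1 it had 61, 34 and 72 counts in shRNF213 cells and 55, 55 and 103 in shControl cells, a difference of -0.33 (SE 0.21). In KKU-100 it had 24, 23 and 38 counts in shRNF213 cells and 13, 25 and 22 in shControl cells, a difference of 0.37 (SE 0.35).

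ZNF117, a zinc finger gene read on the same strand, overlaps 16329 bases of ERV3-1, nearly its whole length. Its counts were highest in the same replicate, with 740, 924 and 2617 in shRNF213 cells and 673, 740 and 1750 in shControl cells of YSCCC. Its log2 difference with the hairpin was 0.32 (SE 0.11) in YSCCC and did not pass the test. Reads common to both genes may have been dropped or given to either by the authors' counting, so their values are not independent. The neighbour ZNF273, on the other strand, had 353, 345 and 166 counts in shRNF213 cells and 337, 339 and 187 in shControl cells of YSCCC, with replicate 3 lowest rather than highest.

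ERVMER34-1 was mainly a HuCCT1 gene. It had 275, 242 and 277 counts in shRNF213 cells and 232, 239 and 249 in shControl cells, higher in each pair by a log2 difference of 0.16 (SE 0.12) that was not called. In YSCCC it had 78, 42 and 49 counts in shRNF213 cells and 64, 52 and 31 in shControl cells, with pairs of either sign and a difference of 0.17 (SE 0.25). In KKU-100 it had 4, 2 and 3 counts in shRNF213 cells and 2, 2 and 3 in shControl cells. Its neighbour DANCR, a noncoding RNA that ends 2267 bases from it, followed the same order of lines, with 2160, 1028 and 1539 counts in shRNF213 cells and 2151, 1076 and 1410 in shControl cells of HuCCT1. In shControl cells DANCR was 3.88 (SE 0.37, adjusted p = 1.22e-05) higher in HuCCT1 than in KKU-100 and 2.01 (SE 0.33, adjusted p = 0.000519) higher than in YSCCC on the log2 scale. USP46, the ubiquitin protease gene farther along, differed by -0.31 (SE 0.16) between HuCCT1 and KKU-100 and did not pass the test. Further neighbours went either way in shControl cells. USP46-AS1 averaged 3.29 CPM in HuCCT1, 3.96 in YSCCC and 4.28 in KKU-100, and LINC01618 had 39, 21 and 0 counts in the same order of lines.

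ERVH48-1 was barely detected. Over the 18 libraries it had 0 to 9 counts, and it passed the filter in no line. In YSCCC it had 3, 0 and 7 counts in shRNF213 cells and 5, 3 and 9 in shControl cells, in KKU-100 2, 1 and 4 in shRNF213 cells and 3, 4 and 4 in shControl cells, and in HuCCT1 3, 2 and 3 in shRNF213 cells and 4, 1 and 1 in shControl cells. A difference with the hairpin was not detectable at this depth. Its receptor partner SLC1A5 averaged 311 ± 61.5 CPM in shRNF213 cells and 279 ± 57.0 CPM in shControl cells of YSCCC (SD, n = 3 each). Of the other listed receptors MFSD2A, the receptor of syncytin-2, fell by 0.66 in YSCCC (SE 0.17, adjusted p = 0.0337), with 172, 108 and 472 counts in shRNF213 cells and 183, 241 and 743 in shControl cells. The call on MFSD2A was lost without replicate 1 and without replicate 2. In HuCCT1 and in KKU-100 MFSD2A was higher in 3 of 3 pairs and was not called.

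**Figure D5:**
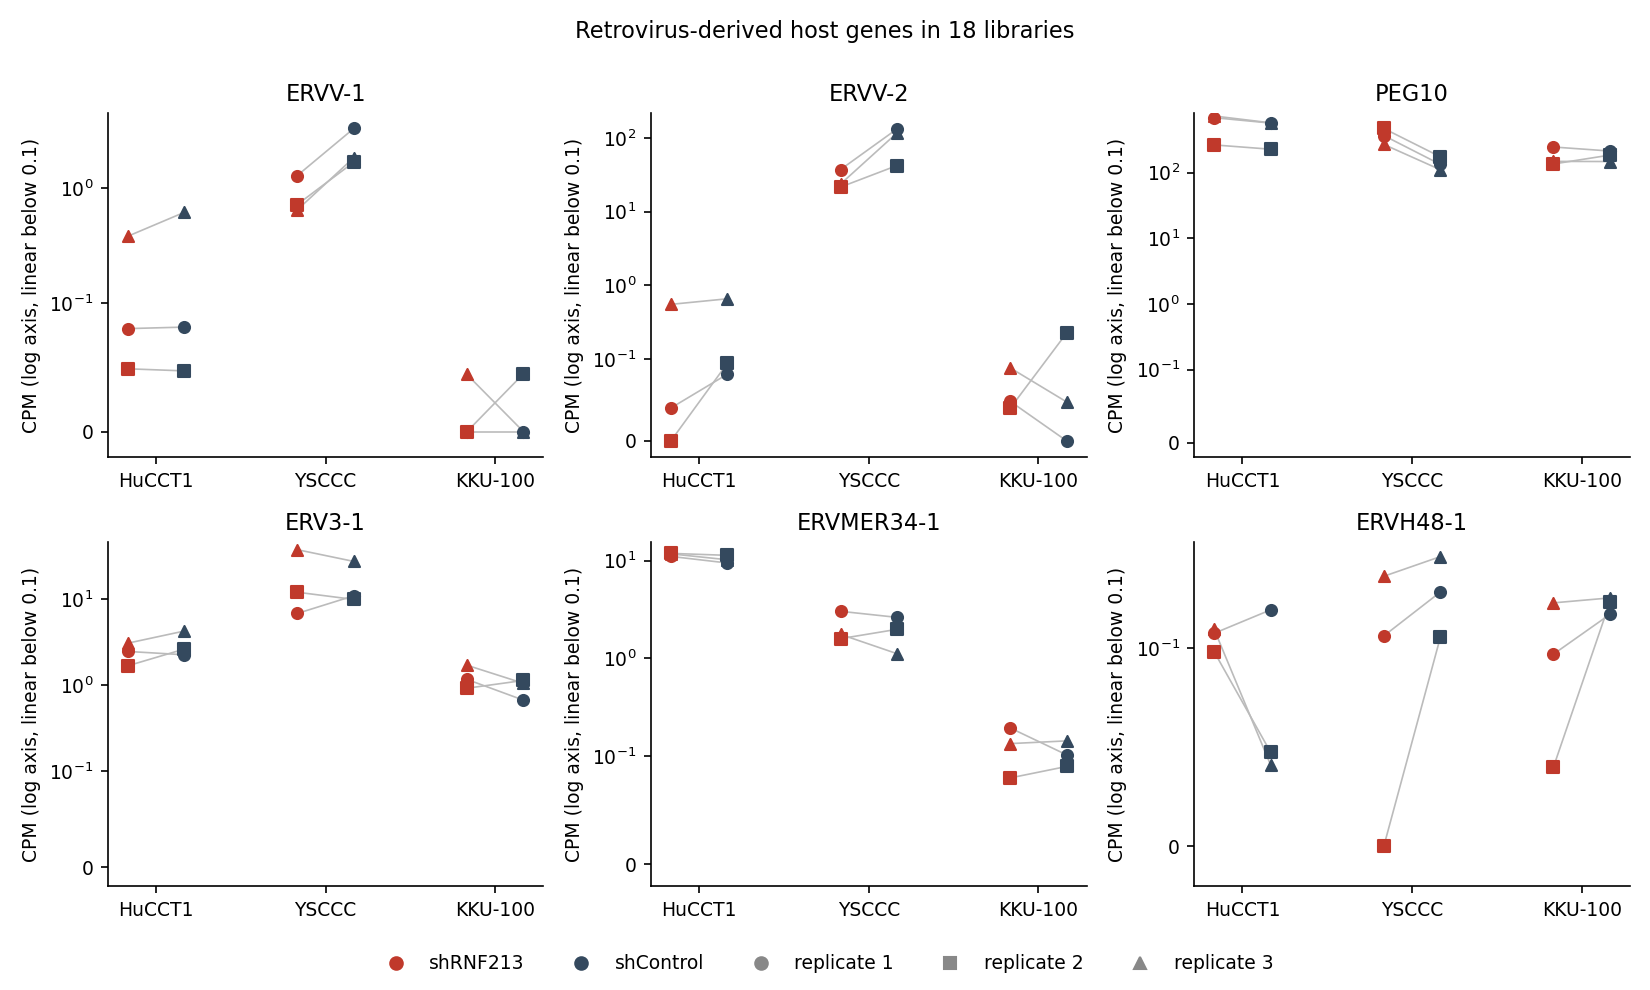
CPM of the 6 members in all 18 libraries on a log axis that is linear below 0.1, with shRNF213 left of shControl in each line and grey lines joining libraries of the same replicate number. ERVV-1 and ERVV-2 are highest in YSCCC, ERVMER34-1 in HuCCT1, and PEG10 lies above 100 CPM in every library, while ERVH48-1 stays at 0 to 9 counts.

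Between lines, levels in shControl cells spread most for ERVV-2 and least for PEG10 among the 5 members above the limit of detection in some line. ERVV-2 had 20 counts over the 3 HuCCT1 libraries, 7570 in YSCCC and 6 in KKU-100, so that YSCCC stood 349-fold above HuCCT1 and 1064-fold above KKU-100 by mean CPM. ERVV-1 had 18, 175 and 1 counts in the same order of lines. ERV3-1 averaged 3.02 ± 1.05 CPM in HuCCT1, 15.9 ± 9.70 in YSCCC and 0.947 ± 0.246 in KKU-100 (SD, n = 3 each). ERVMER34-1 averaged 10.3 ± 0.941 CPM in HuCCT1, 1.91 ± 0.758 in YSCCC and 0.112 ± 0.0274 in KKU-100. PEG10 averaged 457 ± 199 CPM in HuCCT1, 139.8 ± 32.2 in YSCCC and 182 ± 33.0 in KKU-100, and the last 2 did not differ beyond their spread. KKU-100 had the lowest mean for ERVV-1, ERVV-2, ERV3-1 and ERVMER34-1. For ERVV-2, however, HuCCT1 and KKU-100 overlapped, and their log2 difference of 1.52 (SE 1.19) was -0.12 without HuCCT1 shControl replicate 3.

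For HuCCT1 minus KKU-100, 4 of 5 fitted members were called higher and 0 lower, where 30.1% of all genes tested were called higher and 27.3% lower. For YSCCC minus KKU-100, 4 were called higher, all but PEG10, and 0 lower, beside 32.9% of all genes higher and 27.9% lower. For HuCCT1 minus YSCCC, PEG10 and ERVMER34-1 were called higher and ERVV-1, ERVV-2 and ERV3-1 lower, beside 28.1% of all genes higher and 30.2% lower. With so many genes called in each, and members chosen on these levels, nothing is read from the counts. The call on ERVV-1 between HuCCT1 and KKU-100 hung on the 15 counts of a single library. The log2 difference was 3.60 (SE 1.32), and without HuCCT1 shControl replicate 3 it was 1.73 and no longer called.

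Per length, the order of the members differed by line. In shControl cells of HuCCT1 PEG10 led with 193 ± 91.1 TPM, followed by ERVMER34-1 with 8.32 ± 0.521 and ERV3-1 with 7.48 ± 4.03 (SD, n = 3 each), which did not differ beyond their spread. The deposited FPKM of ERV3-1 in HuCCT1 was 1.63 to 3.73 times that from its count and the 2719 bases of its coding transcript. Shorter transcripts of 1729 and 358 bases are annotated too, so the gene has no single length. This order is that of the deposited TPM alone. In YSCCC ERVV-2 with 92.0 ± 46.7 TPM and PEG10 with 67.5 ± 19.6 led, also within their spread of each other, ahead of ERV3-1 with 22.1 ± 14.8 and ERVV-1 with 18.8 ± 9.43. The place of ERVV-1 rests on the deposited measure, which for this gene lies above what its counts give. In shRNF213 cells of YSCCC the first place went to PEG10, with 167 ± 29.5 TPM against 25.3 ± 6.62 for ERVV-2, without overlap between the genes. In KKU-100 PEG10 stood at 72.1 ± 16.8 TPM in shControl cells and ERV3-1 at 1.45 ± 0.259, with the rest below 0.2 TPM.

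Some zinc finger genes beside the ERVV pair also had few or no counts in KKU-100. In shControl libraries ZNF347 had 83 to 117 counts in HuCCT1, 959 to 1308 in YSCCC and 0 in KKU-100, and ZNF415 had 0 to 2 in HuCCT1, 576 to 676 in YSCCC and 0 in KKU-100. ZNF888 had 596 to 834 counts in YSCCC and 4 to 10 in KKU-100, a log2 difference of 6.32 (SE 0.35, adjusted p = 3.63e-07). ZNF160 had 1038 to 1586 counts in YSCCC and 1845 to 2114 in KKU-100, and was lower in YSCCC by a log2 difference of -0.99 (SE 0.17, adjusted p = 0.000532).

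Other host genes of retroviral or Ty3 origin were counted from a list of 36, of which 35 stand in the files. With the hairpin, 22 were tested in YSCCC, where 4 fell and 0 rose, with a median log2 difference of -0.11. Of all genes tested in that line 4.56% were called lower and 3.69% higher. RTL6 fell by 0.39 (SE 0.10, adjusted p = 0.0278), RTL8C by 0.42 (SE 0.10, adjusted p = 0.0244), PNMA1 by 0.75 (SE 0.18, adjusted p = 0.0215) and PNMA5 by 0.61 (SE 0.16, adjusted p = 0.0304). Each was lower in 3 of 3 pairs, though the groups overlapped for all 4, and all 4 calls were lost without replicate 1 and without replicate 2. Of the 12 tested in HuCCT1 and the 12 tested in KKU-100, 0 were called. PEG10 was the gene of Ty3 origin that was higher, while RTL6 and RTL8C, of the same retrotransposon family, fell. RTL6 had 1037, 877 and 1655 counts in shRNF213 cells and 1284, 1193 and 2063 in shControl cells, and RTL8C had 1242, 954 and 930 in shRNF213 cells and 1492, 1447 and 1154 in shControl cells. The placental envelope gene ERVFRD-1, syncytin-2, named after its values were seen, was also highest in YSCCC and had 168, 213 and 19 counts in shRNF213 cells and 129, 137 and 27 in shControl cells, thus no drop shared by all pairs.

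Some of these genes stood far apart between lines. LDOC1, a Ty3-derived gene, had 673 to 954 counts in every YSCCC library and 0 in all libraries of the other lines. PNMA5 had 820 to 3503 counts in shControl libraries of YSCCC, and at most 3 in HuCCT1 and 1 in KKU-100. NYNRIN, which has retroviral integrase and protease-like parts, had 284 to 536 counts in HuCCT1, 29 to 68 in YSCCC and 0 in KKU-100 in shControl cells, the same order as ERVMER34-1. Of 22 tested between lines, 9 were higher and 7 lower in YSCCC than in KKU-100, and 4 were higher and 5 lower in HuCCT1 than in KKU-100. Over all genes tested 32.9% were higher and 27.9% lower in the first comparison and 30.1% higher and 27.3% lower in the second. In HuCCT1 6 of the 22 were higher and 11 lower than in YSCCC, with a median log2 difference of -0.75. Of all genes tested 28.1% were higher and 30.2% lower there, with a median of -0.02. The list was chosen with earlier results of these data known and its shares were not tested, so nothing is read from these counts.

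Genes that hold retroviral sequence silent, such as the TRIM28 and SETDB1 repressor machinery and DNA methyltransferases, were all expressed, 25 of 25 at 1 CPM or more in each line. With the hairpin 1 of 25 was called in YSCCC, HDAC2, a histone deacetylase, which rose by 0.41 (SE 0.09, adjusted p = 0.0184), with 4975, 5742 and 5340 counts in shRNF213 cells and 3740, 3813 and 4300 in shControl cells. Over all genes tested in YSCCC 8.25% were called in either direction and 3.69% higher, so this count is no result about the list. None of the 25 was called in HuCCT1 or KKU-100. The median of the list was 0.10, 0.10 and 0.06 in HuCCT1, YSCCC and KKU-100, and the median over all genes tested was 0.00, 0.01 and 0.00.

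The genes most like each member were ranked by Pearson's r of log2 CPM over the 18 libraries among 11867 genes whose mean was 5 CPM or more. ERVV-2 was most like MPDZ, KLK8 and PRUNE1 (r between 0.979 and 0.981), ERVMER34-1 like NYNRIN, CALHM2 and RBMX2 (0.990 to 0.992), and ERV3-1 like MAP3K13, AHCYL1 and DYNC2H1 (0.965 to 0.970). PEG10 was less closely matched, by HYLS1, PRPS2 and AP002360.1 (0.868 to 0.883). These values take in the differences between the 3 lines. After each line's mean was taken away, the best matches were DHX40 (0.845) for ERVV-2, ELL2 (0.913) for PEG10, ZNF33A (0.876) for ERV3-1 and SLC25A17 (0.840) for ERVMER34-1. Libraries of the same replicate number deviate together, so the 18 points are not independent and these are descriptions of these samples alone.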

How the data were processed

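Polyadenylated RNA was sequenced from 18 libraries, 3 lines by 2 hairpins by 3 replicates. Per the submitters' processing notes the authors worked on build GRCh38 with STAR 2.5.1b, HTSeq 0.6.1p1, StringTie 2.1.6, DESeq2 1.34.0, FastQC 0.11.9 and Picard 1.139; neither the tool behind each column nor the strand setting is named. The deposited tables hold, per the file headers, a coverage signal, FPKM, TPM, the raw count of each gene and a DESeq2-scaled signal, which equals the count times 1 constant per library. Tests used the raw counts; FPKM and TPM served as levels per length, and the other columns were not used.

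Each line was fitted alone with edgeR 4.0.16 under R 4.3.3 (TMM factors, quasi-likelihood F test, filterByExpr set to a minimum count of 10 and a minimum total of 15), with replicate number as a block, since the rule that chose the members pairs libraries so. The 9 shControl libraries were fitted by line, and all 18 with 9 pair blocks gave differences of the hairpin effect. Two-sided p-values were adjusted by Benjamini-Hochberg over all genes tested, with a threshold of 0.05. CPM uses TMM-scaled totals. The fits were tested on simulated counts with known changes. Those counts held no effect of replicate, so this check does not bear on the pairing. Same-numbered libraries deviated together from their group means, with correlations for replicates 1 to 3 of 0.787, 0.706 and 0.763 (HuCCT1), 0.818, 0.723 and 0.902 (YSCCC) and 0.730, 0.600 and 0.406 (KKU-100), all above the minimum of 0.1 for pairing. Some unlike numbers also passed it. In YSCCC shRNF213 replicate 1 with shControl replicate 2 gave 0.657, and shRNF213 replicate 2 with shControl replicate 1 gave 0.516. In KKU-100 shRNF213 replicate 2 with shControl replicate 3 gave 0.122. The other unlike pairs were negative. Their sign adds nothing to the pairing, because with group means subtracted, high values of like pairs force negative values elsewhere. In YSCCC the check thus sets replicate 3 apart more clearly than it tells replicates 1 and 2 apart. P-values of the hairpin fits measure the spread of the differences within these pairs. Those of the fit by line in shControl cells measure the spread between replicates.

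Members, gene lists and alternatives were chosen with earlier results of these data known. Named were the members, RNF213, up to 4 called genes with the smallest adjusted p per list and comparison, and some of the tested genes within 100 kb of a member. The 3 genes most like each member with a mean of at least 1 CPM were named too, and exceptions are marked. Alternatives were no block, DESeq2 1.42.0 and its size factors, no filter, summed ERVV counts and leaving out each replicate. Sequences come from GENCODE release 29 transcripts.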

Additional observations from a re-analysis of the deposited data

Results flagged for a closer look

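For 4 of the genes described that are not members, the effect of the hairpin differed between lines by the term for that difference in the fit of all 18 libraries. TFPI2 differed by 1.25 between YSCCC and KKU-100 and by 1.49 between YSCCC and HuCCT1 (edgeR adjusted p = 0.00779 and 0.0279). The first of these calls held with any single pair of libraries left out, and the second was lost without HuCCT1 replicate 2 or 3 and without YSCCC replicate 1 or 2, where TFPI2 lay between 1.32 and 1.42. SGCE differed by 0.69 between YSCCC and KKU-100 (adjusted p = 0.0293), a call lost without HuCCT1 replicate 1, YSCCC replicate 1 or 2, or KKU-100 replicate 3. In the same comparison MFSD2A differed by -0.95 (adjusted p = 0.0307) and RTL8C by -0.62 (adjusted p = 0.0405). The call on MFSD2A was lost without YSCCC replicate 2 or 3 or KKU-100 replicate 3, and that on RTL8C without any pair other than KKU-100 replicate 2. MFSD2A was lower with the hairpin in 3 of 3 YSCCC pairs and higher in 3 of 3 pairs of KKU-100 and of HuCCT1. In HuCCT1 it had 175, 128 and 160 counts in shRNF213 cells and 91, 95 and 110 in shControl cells. That rise was not called, nor was the difference of MFSD2A between YSCCC and HuCCT1. None of the calls on these 4 genes was made without the replicate block. The log2 effect on PEG10 was larger in YSCCC by 1.48 than in KKU-100 and by 1.11 than in HuCCT1, values that belong to the contrasts by which it was chosen and are given as descriptions.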

How the results depend on the processing

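The hairpin counts depended on the replicate block, which pairs libraries by number. Without the replicate block edgeR called 0 genes in HuCCT1, 0 in YSCCC and 2 in KKU-100 (388, 802 and 966 at an unadjusted p below 0.05), and 0 for each of the 3 differences between lines (621, 1108 and 344). ERVV-1, ERVV-2 and PEG10 kept their size in YSCCC without it, at -1.36, -1.83 and 1.40, and lost their calls. Without a filter on low counts the calls were 117 in HuCCT1, 2160 in YSCCC and 193 in KKU-100, and 273, 894 and 125 for the differences HuCCT1 minus KKU-100, YSCCC minus KKU-100 and YSCCC minus HuCCT1. DESeq2 with the block called 116 genes in HuCCT1 and 418 in KKU-100. With 1 replicate left out, calls ranged from 18 to 335 in HuCCT1, 313 to 1856 in YSCCC and 9 to 420 in KKU-100, and with 1 pair left out, an alternative chosen after seeing the data, from 4 to 290, 156 to 839 and 0 to 44 for those 3 differences. The cause was not tested. Counts of genes called between lines in shControl cells stayed within 1.5 times under each alternative, the replicate block included (9640, 10255 and 9767), and no called member turned its sign under any alternative. Members with few counts, ERVH48-1 everywhere and the ERVV genes outside YSCCC, are limited by depth.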
